A study of Mus musculus with 6 samples.

Results

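T cell receptor variable segments were followed in bulk RNA-seq of 6 mouse tumour samples. They were taken as the genes of the deposited count table whose symbol starts with Trav, Trbv, Trdv or Trgv and a digit, and were selected on their counts, which had to sum to at least 10 over the 6 libraries. Of 57186 genes, 170 carried such a symbol, and 73 of these reached 10 counts: 51 of 128 alpha (Trav), 18 of 35 beta (Trbv), 3 of 6 delta (Trdv) and the 1 gamma segment so named, Trgv2. The tumours grew subcutaneously in C57BL/6J mice from MB49 cells, a bladder carcinoma line from a male mouse, and were harvested at 500 mm3. The line had been treated with CRISPR either to lose chromosome Y (Y-KO, 3 libraries) or as a scrambled control (Y-Scr, 3 libraries). In both groups CD45-negative cells were sorted before RNA extraction, so the sort was directed against the leukocytes that carry these receptors. The labels do not say whether replicates came from separate mice or whether the line was 1 clone. The p-values therefore measure only how these libraries spread, which may be technical.

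A T cell receptor is a heterodimer of an alpha and a beta chain, or of a gamma and a delta chain. In a developing T cell the locus of each chain is cut and joined so that 1 variable segment sits before a joining segment, with a diversity segment between them in beta and delta chains, and the joined exon is spliced to a constant region. A T cell clone usually expresses 1 productive beta chain and passes it to its daughters, so the variable segments in a sample reflect the clones it holds. Segment choice also marks some T cell types with nearly fixed receptors. In bulk RNA, fewer T cells and less receptor RNA per cell cannot be told apart.

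The ends of 8 segments are shown because the results turn on them: Trbv1 and Trgv2 overlapped between the groups, while the others were far lower in Y-KO or had no count there. Each line is the last 90 coding bases of the germline segment, 5′ to 3′, from GENCODE M21 transcripts of GRCm38. The capitals mark the codon of the conserved cysteine, found as the last in-frame cysteine codon after a tyrosine, phenylalanine or leucine codon; the bases after it begin the joined, clone-specific stretch.
Trbv1: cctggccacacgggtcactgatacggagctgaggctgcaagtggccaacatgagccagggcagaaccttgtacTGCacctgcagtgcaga
Trgv2: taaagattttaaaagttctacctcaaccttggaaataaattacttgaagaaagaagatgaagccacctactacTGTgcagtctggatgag
Trbv16: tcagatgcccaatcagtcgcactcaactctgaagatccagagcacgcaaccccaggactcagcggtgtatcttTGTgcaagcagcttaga
Trbv13-1: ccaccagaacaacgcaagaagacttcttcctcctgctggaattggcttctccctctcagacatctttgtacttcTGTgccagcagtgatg
Trbv13-2: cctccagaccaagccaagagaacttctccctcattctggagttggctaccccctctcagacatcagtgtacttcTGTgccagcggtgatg
Trdv4: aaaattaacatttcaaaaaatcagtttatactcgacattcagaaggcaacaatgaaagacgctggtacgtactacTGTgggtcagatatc
Trbv17: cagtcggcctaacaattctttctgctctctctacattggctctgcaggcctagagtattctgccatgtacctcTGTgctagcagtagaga
Trbv26: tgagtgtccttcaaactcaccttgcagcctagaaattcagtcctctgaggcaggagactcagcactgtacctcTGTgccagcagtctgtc

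How far reads can be assigned to a segment differs between loci, because reads that fit several places were not counted. Of the 18 Trbv members, 16 share no stretch of 50 bases with another functional segment, and the highest share was 0.344% of stretches. The segment nearest to Trbv1 is 53.1% identical to it. The 51 Trav members share a median of 45.4% of their 50-base stretches with another segment, and 19 share over 50%. Of the 57 functional Trav segments outside the set, 35 share every stretch and 30 are identical to another segment, so a low count there does not show low expression. Trav7-4 and Trav7d-4, both members, illustrate this: they are 99.4% identical, with 2 differences in 341 coding bases. Coding bases 5 to 222 are printed with the differing bases in capitals.
Trav7-4: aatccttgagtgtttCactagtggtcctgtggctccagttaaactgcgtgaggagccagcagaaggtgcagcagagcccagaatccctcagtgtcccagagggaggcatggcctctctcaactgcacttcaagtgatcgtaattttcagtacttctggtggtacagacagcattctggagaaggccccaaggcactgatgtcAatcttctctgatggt
Trav7d-4: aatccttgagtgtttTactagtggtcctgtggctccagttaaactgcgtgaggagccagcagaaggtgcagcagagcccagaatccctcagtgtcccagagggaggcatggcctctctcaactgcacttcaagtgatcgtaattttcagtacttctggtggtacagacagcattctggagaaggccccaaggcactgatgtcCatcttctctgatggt

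Library totals ran from 42040955 to 52951031 counts. Over the 17837 genes tested, Y-KO replicate 3 stood apart from Y-KO replicates 1 and 2, by a root mean square log2 difference of 0.555 and 0.567 against 0.395 between those 2, while Y-Scr libraries lay 0.297 to 0.320 apart. Kdm5d, a histone demethylase gene of chromosome Y, had 214, 168 and 78 counts in Y-KO libraries and 2151, 2079 and 2455 in Y-Scr libraries, which checks the labels. Ptprc, which encodes CD45, was present in both groups despite the sort. It stood at 293, 298 and 134 CPM (counts scaled to library size, with TMM scaling) in Y-KO libraries and 521, 577 and 601 CPM in Y-Scr libraries (log2 fold change -1.23 with an SE of 0.26, edgeR adjusted p = 0.0157), a call lost without any 1 Y-Scr library (edgeR adjusted p from 0.0549 to 0.0746). The part that leukocyte RNA passing the sort has in the results that follow was not tested.

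The summed level of the members was lower in Y-KO at the alpha, beta and delta loci. Of the gamma locus, only Trgv2 was a member. All members together stood at 13.5, 10.96 and 9.48 CPM in Y-KO libraries and 45.9, 38.1 and 38.1 CPM in Y-Scr libraries, with means of 11.3 ± 2.01 CPM in Y-KO against 40.7 ± 4.51 CPM in Y-Scr (SD, n = 3 each), 3.60-fold lower in Y-KO. The sums rest on 653, 486 and 418 counts in Y-KO and 2515, 1699 and 2041 counts in Y-Scr. Every Y-KO library was below every Y-Scr library. As the members were chosen with these counts, the sums are described without a test.

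By locus, Trav segments summed to 3.22, 3.38 and 3.18 CPM in Y-KO and 10.5, 11.3 and 10.5 CPM in Y-Scr. Trbv segments summed to 7.94, 5.95 and 4.97 CPM in Y-KO and 28.8, 21.7 and 21.8 CPM in Y-Scr. Trdv segments summed to 0.619, 0.158 and 0.340 CPM in Y-KO and 5.17, 3.16 and 3.89 CPM in Y-Scr libraries, a 10.9-fold difference in mean. The groups did not overlap at any of these loci. Trgv2 stood at 1.69, 1.47 and 0.998 CPM in Y-KO and 1.42, 2.02 and 1.98 CPM in Y-Scr, where the groups overlapped. Gamma segments named Tcrg-V, which were not members, summed to 0.041, 0.045 and 0 CPM in Y-KO and 1.68, 1.44 and 1.85 in Y-Scr. Without Trbv1 and Trgv2, left out after their values were seen, the other members summed to 7.79, 6.52 and 6.22 CPM in Y-KO and 41.3, 34.3 and 34.6 CPM in Y-Scr libraries, a 5.37-fold difference.

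**Figure D1:**
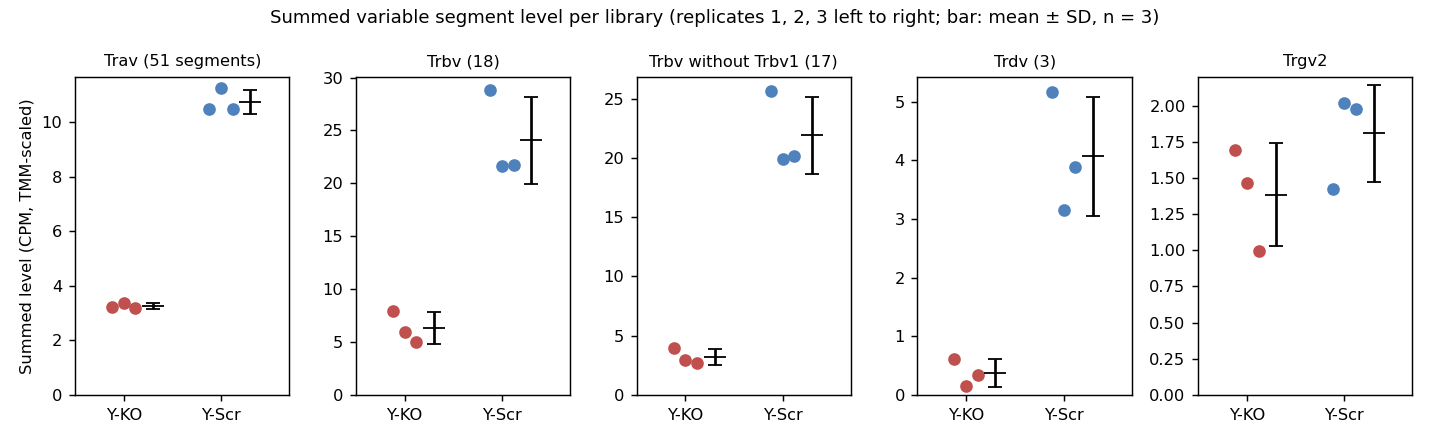
Summed level of the variable segments of each locus per library (CPM, TMM-scaled), Y-KO in red and Y-Scr in blue, with the mean ± SD of 3 libraries beside the points. The Trav, Trbv and Trdv sums of Y-KO lie below all Y-Scr values, from 3.18 to 3.38 against 10.5 to 11.3 CPM for Trav, and those of Trgv2 overlap.

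Trbv1 stood apart among the beta segments (chromosome 6, 40868163 to 40868819, plus strand, GRCm39). It had 193, 132 and 100 counts in Y-KO libraries and 173, 78 and 84 counts in Y-Scr libraries, or 3.98, 2.98 and 2.27 CPM in Y-KO against 3.16, 1.75 and 1.57 CPM in Y-Scr. The groups overlapped, and the log2 fold change of 0.51 with an SE of 0.36 (edgeR adjusted p = 0.393) did not pass the test. As a share of all Trbv counts it made up 50.1% (95% Wilson interval 45.2 to 55.1), 50% (44.0 to 56.0) and 45.7% (39.2 to 52.3) in Y-KO libraries and 10.96%, 8.07% and 7.204% in Y-Scr libraries. Trbv1 was the most counted beta segment in each Y-KO library. In each Y-Scr library that place was held by Trbv16, at 13.9%, 15.5% and 10.7% of Trbv counts. Per kilobase of exon, Trbv1 averaged 7.37 CPM in Y-KO against 5.18 CPM in Y-Scr, while Trbv16 averaged 0.909 CPM in Y-KO against 8.14 CPM in Y-Scr. Trbv1 overlaps no other gene of the count table.

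**Figure D2:**
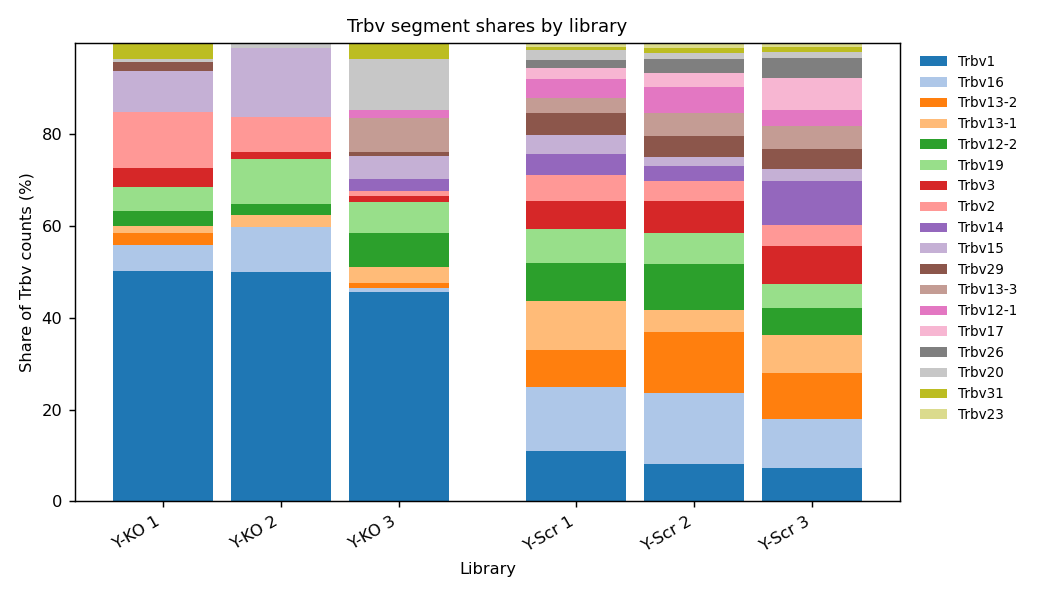
Share of Trbv counts (%) held by each of the 18 Trbv segments in each library, with Y-KO on the left and Y-Scr on the right. Trbv1 at the base fills 45.7 to 50.1% of each Y-KO bar and 7.204 to 10.96% of each Y-Scr bar.

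Of the 18 beta segments, 12 were lower in Y-KO by the edgeR test, against 8.27% of all genes tested, and none was higher, against 7.82%. Trbv16 (41128674 to 41129164) had 22, 26 and 2 counts in Y-KO libraries and 220, 150 and 125 in Y-Scr libraries, a log2 fold change of -3.15 with an SE of 0.67 (edgeR adjusted p = 0.0157). Trbv13-2 (41098330 to 41098766) had 10, 0 and 2 counts in Y-KO and 129, 129 and 117 in Y-Scr, a log2 fold change of -4.81 with an SE of 0.81 (edgeR adjusted p = 0.00599). Its neighbour Trbv13-1 (41092941 to 41093402) had 6, 7 and 8 counts in Y-KO and 168, 46 and 97 in Y-Scr, a log2 fold change of -3.66 with an SE of 0.57 (edgeR adjusted p = 0.00402). All Y-KO libraries were low for these 3 segments, and no value of one group fell within the range of the other. None of the 3 had enough Y-KO counts to pass the filter on low counts without Y-Scr, so their p-values do not stand apart from that selection. The Trbv16 call was lost without any 1 Y-Scr library (edgeR adjusted p from 0.0534 to 0.0746). Trbv13-3, of the same family, was seen in 1 Y-KO library, with 0, 0 and 16 counts in Y-KO and 52, 47 and 58 in Y-Scr (edgeR adjusted p = 0.137). Trbv13-2 and Trbv13-3 are 90.6% identical.

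No Y-KO library had a count of Trbv17, Trbv26 or Trbv23. Trbv17 (41139996 to 41140490) had 39, 29 and 82 counts in Y-Scr, so its level was at least 44.8-fold lower in Y-KO, with the floor set at 3 counts for the group (edgeR adjusted p = 0.00664). Trbv26 (41204439 to 41204927) had 26, 30 and 51 counts in Y-Scr, so its level was at least 31.9-fold lower (edgeR adjusted p = 0.00915). Trbv23 had 14, 12 and 11 counts in Y-Scr, so its level was at least 11.05-fold lower (edgeR adjusted p = 0.0322). All 3 became members, and passed the filter on low counts, through Y-Scr alone, so their p-values do not stand apart from that selection. The bounds cover counting error only and take each count as independent. Both reads of a pair may have been counted: of the members' counts from 2 to 20, 70.6 to 78.9% were even in Y-KO libraries and 75.0 to 76.7% in Y-Scr libraries. With a floor of 6 counts, or 3 pairs, the bounds are 22.4-fold for Trbv17, 16-fold for Trbv26 and 5.52-fold for Trbv23. The other 6 called beta segments were Trbv12-1, Trbv14, Trbv29, Trbv3, Trbv12-2 and Trbv19, with log2 fold changes from -5.04 to -1.81. All of these but Trbv19 passed the filter on low counts only with Y-Scr libraries, so their p-values do not stand apart from that selection. Trbv12-1 and Trbv14 also became members through Y-Scr alone. Trbv12-2 had 13, 6 and 16 counts in Y-KO and 132, 96 and 68 in Y-Scr (edgeR adjusted p = 0.00777), and Trbv3 had 16, 4 and 3 counts in Y-KO and 99, 68 and 97 in Y-Scr (edgeR adjusted p = 0.0104). Trbv19, the least changed of these, had 20, 26 and 15 counts in Y-KO and 114, 66 and 62 in Y-Scr, a log2 fold change of -1.81 with an SE of 0.46 (edgeR adjusted p = 0.0312). Without single libraries some of these calls were lost. Trbv12-1, Trbv14 and Trbv29 were not called without any 1 Y-Scr library (edgeR adjusted p from 0.0614 to 0.131), and neither was Trbv19, nor without Y-KO replicate 1 (0.0752 to 0.134). Trbv23 was called without Y-KO replicate 3 but not without any other 1 (edgeR adjusted p from 0.0754 to 0.142). Trbv17 and Trbv3 were not called without Y-Scr replicate 3 (edgeR adjusted p = 0.0577 and 0.0606), and Trbv26 lost its call when Y-Scr replicate 2 or 3 was left out (edgeR adjusted p = 0.0547 and 0.0724).

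The 6 beta segments that did not pass the test were Trbv1, Trbv13-3, Trbv2, Trbv15, Trbv20 and Trbv31. Trbv15 had 34, 40 and 11 counts in Y-KO and 64, 19 and 31 in Y-Scr (log2 fold change -0.23, SE 0.67). Trbv2 had 47, 20 and 2 counts in Y-KO and 89, 41 and 53 in Y-Scr (log2 fold change -1.26, SE 0.83). Both had their lowest Y-KO count in replicate 3, and the groups overlapped. Trbv20 had its highest Y-KO count in replicate 3, with 2, 3 and 24 counts in Y-KO and 37, 12 and 16 in Y-Scr (log2 fold change -0.93, SE 1.04). Trbv31, the only member on the minus strand of the beta locus, had 14, 0 and 8 counts in Y-KO and 10, 10 and 12 in Y-Scr.

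The alpha segments were spread thinly, with 10 to 103 counts each over the 6 libraries, and different segments led in different libraries. Trav13-1 led in Y-KO replicate 1 with 15.4% of Trav counts (95% Wilson interval 10.6 to 21.9), Trav12-3 in Y-KO replicate 2 with 17.3% (12.1 to 24.2) and Trav16n in Y-KO replicate 3 with 21.4% (15.4 to 28.9). In Y-Scr the leading segments were Trav14-3 in replicate 1 with 9.74% (7.58 to 12.4), Trav7-4 in replicate 2 with 11.2% (8.69 to 14.2) and Trav13-4-dv7 in replicate 3 with 5.88% (4.22 to 8.15). Some alpha segments were seen in 1 Y-KO library and not in the others. Trav16n had 0, 0 and 30 counts in Y-KO and 24, 12 and 7 in Y-Scr. Trav12-3 had 0, 26 and 0 counts in Y-KO and 28, 8 and 0 in Y-Scr. Trav10 had 22, 0 and 0 counts in Y-KO and 6, 6 and 4 in Y-Scr.

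Of the 11 alpha segments that could be tested, 2 were lower in Y-KO, against 8.27% of all genes tested, and none was higher, against 7.82%. Trav21-dv12 (chromosome 14, 54113441 to 54114209), whose name marks it as a segment of delta chains too, had no count in Y-KO and 13, 11 and 20 counts in Y-Scr. It was at least 13.1-fold lower with the floor at 3 counts and 6.57-fold at 6 counts (edgeR adjusted p = 0.0273). It became a member through Y-Scr alone and shares no 50-base stretch with another segment. Trav14-3 (54000630 to 54001151) had 0, 3 and 3 counts in Y-KO and 56, 12 and 29 in Y-Scr, a log2 fold change of -3.71 with an SE of 1.08 (edgeR adjusted p = 0.0495). Trav14-3 too became a member through Y-Scr alone. Both segments passed the filter on low counts only with Y-Scr libraries, so their p-values do not stand apart from that selection. Both calls were lost without any 1 library other than Y-KO replicate 3, with edgeR adjusted p from 0.0652 to 0.136 for Trav21-dv12 and from 0.0922 to 0.226 for Trav14-3. Trav13-1 had 24, 10 and 14 counts in Y-KO and 35, 16 and 3 in Y-Scr, a log2 fold change of -0.02 with an SE of 0.90 (edgeR adjusted p = 0.991). Trav13-2 overlapped between the groups too, at 16, 12 and 13 in Y-KO and 6, 25 and 21 in Y-Scr. Trav7-4 had no count in Y-KO and 4, 56 and 26 in Y-Scr, and its near copy Trav7d-4 had none in Y-KO and 2, 8 and 30 in Y-Scr. Neither passed the filter on low counts. The 8 alpha members whose names also carry a delta number summed to 18, 16 and 14 counts in Y-KO and 91, 98 and 117 in Y-Scr.

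Segments of T cells with nearly fixed alpha chains gave little. Trav11 and Trav11d, of which Trav11 is the alpha segment of invariant natural killer T cells, had 0 counts in all 6 libraries. They are 99.7% identical and share 99.7% and 100% of their 50-base stretches, so counts of 0 do not show that they were absent. Trav1, the segment of mucosal-associated invariant T cells, shares no stretch and had no count in Y-KO and 12, 0 and 12 in Y-Scr.

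**Figure D3:**
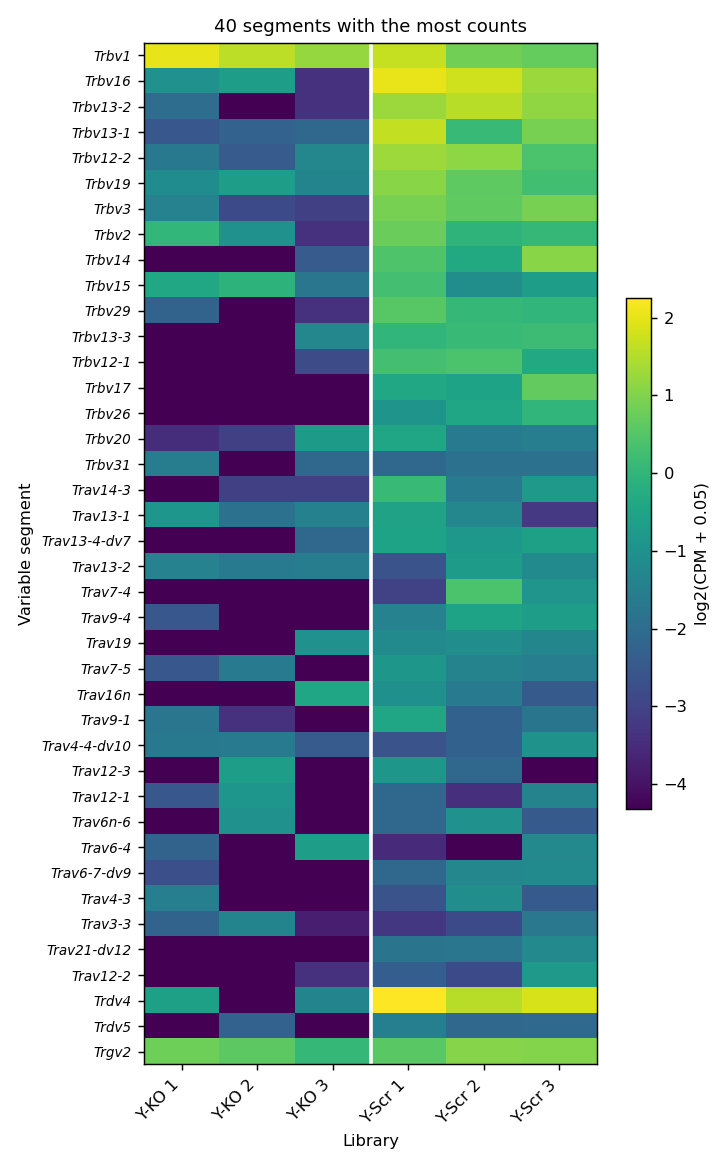
Level of the 40 variable segments with the most counts in each library, as log2(CPM + 0.05), ordered by locus and total counts, with Y-KO left of the white line and Y-Scr right of it. Dark cells are segments with no or few counts, and Trbv1 and Trgv2 are bright in all 6 libraries.

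Among the delta segments, Trdv4 had the most counts (chromosome 14, 54312362 to 54312972). It had 30, 0 and 15 counts in Y-KO and 258, 129 and 192 in Y-Scr, a log2 fold change of -3.52 with an SE of 0.83 (edgeR adjusted p = 0.0230). This call was lost without any 1 Y-Scr library (edgeR adjusted p from 0.0759 to 0.103). Trdv4 passed the filter on low counts only with Y-Scr libraries, so its p-value does not stand apart from that selection. Trdv4 is the delta segment of the gamma-delta T cells of mouse skin and of those with the Vgamma6 chain. Trdv5 had 0, 7 and 0 counts in Y-KO and 17, 8 and 10 in Y-Scr, and Trdv1 had no count in Y-KO and 8, 4 and 6 in Y-Scr. All 3 delta members were lower in Y-KO without overlap, against 17.7% of all genes with at least 10 counts; 2 of them reached 10 counts through Y-Scr alone, and 1 of the 3 could be tested.

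Trgv2 (chromosome 13, 19520743 to 19521337, minus strand) had 82, 65 and 44 counts in Y-KO and 78, 90 and 106 in Y-Scr, a log2 fold change of -0.38 with an SE of 0.35 (edgeR adjusted p = 0.523). The symbol table names the other gamma segments Tcrg-V, so the rule did not take them. The 3 of these that could be tested were lower in Y-KO by the edgeR test, against 8.27% of all genes tested. They passed the filter on low counts through Y-Scr alone, so their p-values do not stand apart from that selection. Tcrg-V6 had no count in Y-KO and 28, 17 and 36 in Y-Scr, which made its level at least 24.2-fold lower with the floor at 3 counts and 12.1-fold at 6 counts (edgeR adjusted p = 0.0136). Tcrg-V1 had 0, 2 and 0 counts in Y-KO and 39, 29 and 37 in Y-Scr (log2 fold change -5.31 with an SE of 1.11, edgeR adjusted p = 0.0148). Tcrg-V4 had 2, 0 and 0 counts in Y-KO and 24, 14 and 26 in Y-Scr (log2 fold change -4.62 with an SE of 1.19, edgeR adjusted p = 0.0326). Tcrg-C2, a gamma constant gene near Trgv2, did not pass the test either but did not overlap, with 369, 310 and 433 counts in Y-KO and 608, 479 and 583 in Y-Scr (log2 fold change -0.42 with an SE of 0.17, edgeR adjusted p = 0.138), and it passed without Y-KO replicate 3 (edgeR adjusted p = 0.00955). The Tcrg-V1, Tcrg-V4 and Tcrg-V6 calls were lost without any 1 Y-Scr library (edgeR adjusted p from 0.0661 to 0.153), and that of Tcrg-V4 also without Y-KO replicate 2 (edgeR adjusted p = 0.0935).

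In all, 31 of the 73 members passed the filter on low counts, and 15 of them were lower in Y-KO with an edgeR adjusted p under 0.05, against 8.27% of all genes tested. None was higher, against 7.82% of all genes. The 15 were 12 beta, 2 alpha and 1 delta segment. Of these, 7 reached 10 counts through Y-Scr alone and so had to be low in Y-KO. The filter also asks for about 10 counts in at least 3 libraries. Of the 15, Trbv19 alone had at least 10 counts in each Y-KO library, so the others passed the filter only with Y-Scr libraries. Their p-values do not stand apart from that selection. The share called is thus partly set by the choice of members and is no support for a difference. Leaving out Y-KO replicate 1, 2 or 3 gave 12 calls of 44 members tested, 12 of 42 or 22 of 46, against 5.35%, 5.62% or 17.7% of all genes. Leaving out Y-Scr replicate 1, 2 or 3 gave 7 calls of 41 members tested, 5 of 37 or 3 of 39, against 4.06%, 3.1% or 3.01% of all genes. DESeq2 called 21 of 56 members (9.06% of all genes), and edgeR called 15 of 31 with library size as the only scaling (12.6%), 13 of 73 without the filter (5.94%), 12 of 18 with counts halved (9.56%), 11 of 31 with a replicate block (6.28%) and 5 of 44 with close libraries summed (1.85%). No member was higher in any of these. Over all genes the share higher was 3.86%, 3.9% and 16% without the Y-KO libraries in the same order and 5.2%, 2.45% and 2.56% without the Y-Scr libraries. It was 7.8% with DESeq2, 4.1% with library size only, 5.16% without the filter, 9.36% with counts halved, 5.3% with the block and 0.7% with close libraries summed. Trbv13-1 and Trbv13-2 were called in all 12 alternatives run. The 42 members not tested had 10 to 86 counts, 24 of them with none in Y-KO.

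**Figure D4:**
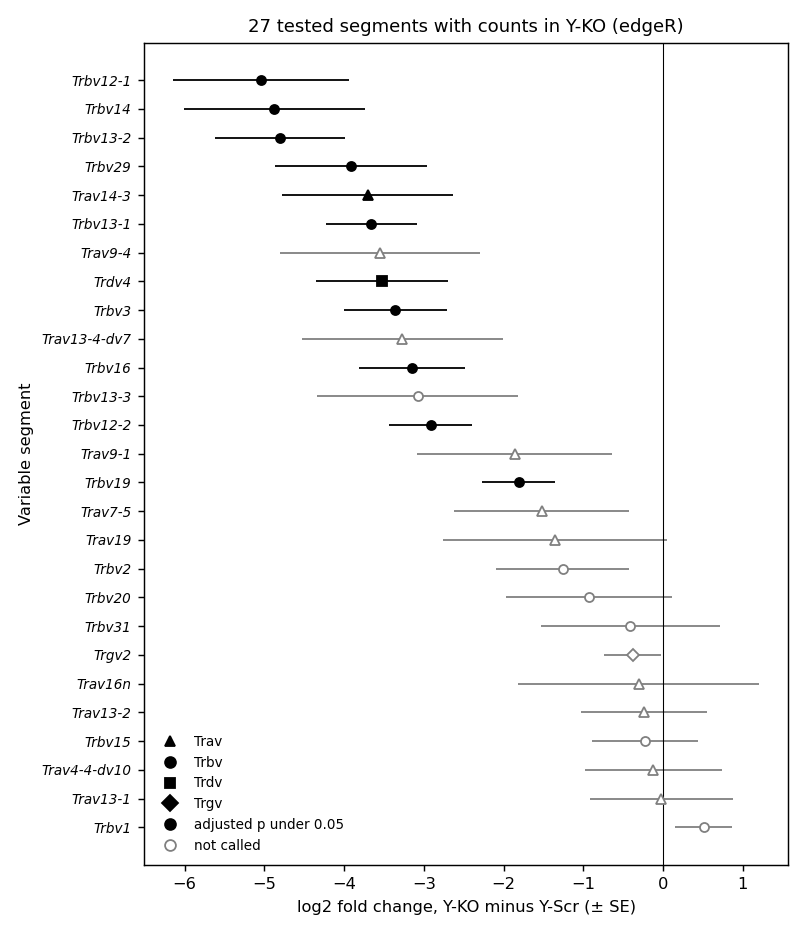
Log2 fold change, Y-KO minus Y-Scr, ± SE for the 27 tested segments with a count in Y-KO, by locus (symbol shape) and edgeR call (filled, adjusted p under 0.05). Values run from -5.04 for Trbv12-1 to 0.51 for Trbv1; 4 segments with no count in Y-KO are left out because their fitted fold is not bounded by the data.

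Fewer segments were detected in Y-KO. Of the 73, 28, 24 and 32 had a count in the Y-KO libraries and 68, 63 and 67 in the Y-Scr libraries. With at least 3 counts required, there were 26, 22 and 22 in Y-KO and 64, 59 and 63 in Y-Scr. Over the 3 libraries, 28 members (38.4%) had no count in Y-KO, against 4.75% of all genes with at least 10 counts, and none lacked a count in all of Y-Scr, against 1.84%. In 35 members (47.9%) the groups did not overlap with Y-KO lower, against 17.7% of such genes, and in none with Y-KO higher, against 13.5%. These shares are partly set by the choice of members, since 40 of the 73 reached 10 counts through Y-Scr alone and 1 through Y-KO alone. The 28 without a Y-KO count were 24 of 51 alpha, 3 of 18 beta and 1 of 3 delta segments. In Y-Scr, 55 members were seen in all 3 libraries, against 14 in Y-KO, where 20 were seen in 1 library only.

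The number was lower at equal depth too. Drawn down to the 418 counts of the shallowest library, the expected number of segments was 27.5, 24.0 and 32 in Y-KO and 55.7, 57.0 and 57.7 in Y-Scr, with means of 27.8 ± 4.03 in Y-KO and 56.8 ± 1.009 in Y-Scr (SD, n = 3 each). For Trav at 140 counts it was 13.9, 13.0 and 15 in Y-KO and 38.7, 36.5 and 38.2 in Y-Scr. For Trbv at 219 counts it was 11.8, 8.99 and 15 in Y-KO and 17.6, 17.8 and 17.8 in Y-Scr. The groups did not overlap in any of these sets. These numbers cover the same 73 members, 40 of which reached 10 counts through Y-Scr alone and 1 through Y-KO alone. They also take counts as independent draws, which reads need not be.

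**Figure D5:**
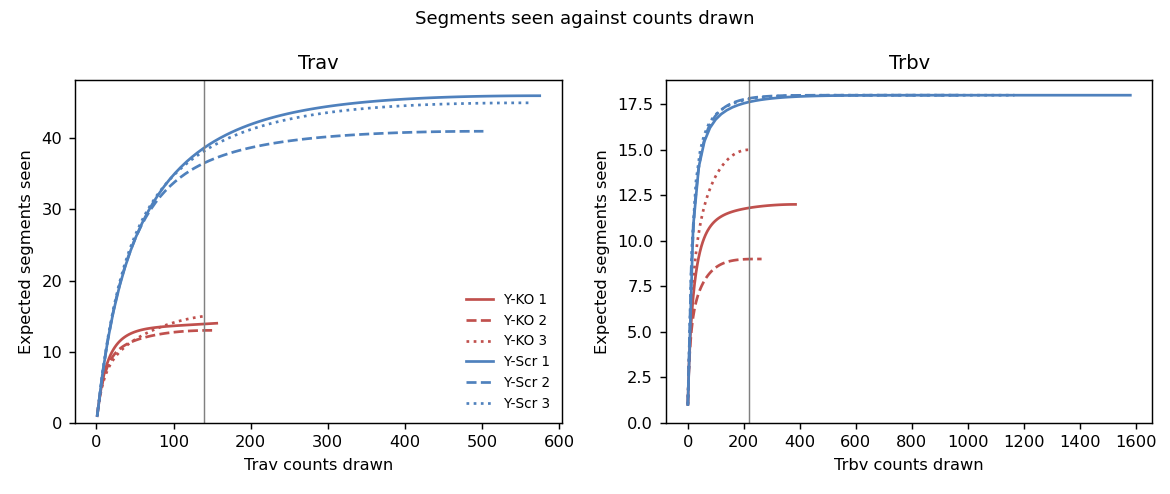
Expected number of segments seen (y axis) when a given number of counts is drawn from a library (x axis), for Trav on the left and Trbv on the right; the grey line marks the depth of the shallowest library. At that depth Y-KO libraries reach 13.0 to 15 Trav segments and Y-Scr libraries 36.5 to 38.7.

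The counts were shared less evenly in Y-KO over all members, and by Pielou evenness this order rested on Trbv1 and Trgv2. Pielou evenness, which is 1 where all detected segments have equal counts, was 0.807, 0.820 and 0.820 in Y-KO and 0.830, 0.870 and 0.862 in Y-Scr over all members. The groups did not overlap. Without Trbv1 and Trgv2 the values were 0.928, 0.911 and 0.891 in Y-KO and 0.826, 0.868 and 0.859 in Y-Scr, so the order was reversed. Among beta segments it was 0.712, 0.720 and 0.724 in Y-KO and 0.925, 0.919 and 0.945 in Y-Scr, and without Trbv1 0.900, 0.854 and 0.886 in Y-KO and 0.923, 0.912 and 0.940 in Y-Scr. Among alpha segments it was 0.935, 0.913 and 0.833 in Y-KO and 0.913, 0.934 and 0.929 in Y-Scr, with overlap. Pielou evenness depends on how many segments a library's depth reveals.

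The inverse Simpson index is the number of equally used segments that would give the same chance of drawing the same segment in 2 draws. On average it does not depend on depth if counts are independent draws, which reads need not be. It was 8.25, 8.69 and 10.9 in Y-KO and 22.5, 26.0 and 26.997 in Y-Scr over all members. It stayed lower in Y-KO without Trbv1 and Trgv2, at 18.02, 14.7 and 17.99 against 20.9, 24.1 and 25.2 in Y-Scr. For alpha segments it was 11.2, 9.72 and 8.01 in Y-KO and 26.4, 26.8 and 30.5 in Y-Scr. For beta segments it was 3.53, 3.37 and 4.18 in Y-KO and 12.7, 12.1 and 14.2 in Y-Scr. The 3 most counted beta segments held 71.2%, 75.0% and 63.9% of Trbv counts in Y-KO and 35.5%, 38.8% and 30.3% in Y-Scr.

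Segment use of the beta and alpha loci differed more among Y-KO libraries than among Y-Scr libraries, apart from the Trbv shares of Y-KO replicates 1 and 2. Bray-Curtis dissimilarity of Trbv shares, 0 for equal and 1 for disjoint use, was 0.168, 0.300 and 0.332 within Y-KO, 0.152 to 0.183 within Y-Scr and 0.513 to 0.629 between the groups. The lowest Y-KO value was between replicates 1 and 2, the pair that lay closest over all genes. Without Trbv1 it was 0.335 to 0.601 within Y-KO, 0.148 to 0.185 within Y-Scr and 0.415 to 0.606 between the groups, and the first and last of these ranges overlap. For Trav it was 0.632 to 0.769 within Y-KO, where pairs shared 6 to 7 segments, 0.431 to 0.452 within Y-Scr, where pairs shared 35 to 42, and 0.672 to 0.758 between the groups. The Trav range between the groups thus lay within that of the Y-KO libraries. The Y-KO values rest on 119 to 192 Trbv counts without Trbv1 and 140 to 156 Trav counts per library, and fewer counts raise this measure.

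Set against the constant region of the same chain, the Trav and Trbv sums of the groups overlapped. There were 13.9, 14.9 and 21.9 Trav counts per 100 Trac counts in Y-KO and 21.6, 22.9 and 23.4 in Y-Scr. There were 21.3, 14.1 and 19.6 Trbv counts per 100 Trbc1 and Trbc2 counts in Y-KO and 21.2, 19.2 and 18.9 in Y-Scr. Without Trbv1 the beta values were 10.6, 7.03 and 10.7 in Y-KO and 18.9, 17.6 and 17.5 in Y-Scr, with no overlap. Trdv counts per 100 Trdc counts were 35.7, 12.3 and 40.5 in Y-KO and 34.5, 21.4 and 29.9 in Y-Scr. Trgv2 counts per 100 counts of the gamma constant genes (Tcrg-C1 to Tcrg-C4) were 20.4, 15.1 and 8.92 in Y-KO and 5.71, 8.60 and 8.26 in Y-Scr. There Y-KO was higher without overlap. Per 100 counts of Tcrg-C2 alone they were 22.2, 20.97 and 10.2 in Y-KO and 12.8, 18.8 and 18.2 in Y-Scr, with overlap.

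The constant regions and the chains that carry the receptor's signal were lower too. Of the 7 tested constant genes 6 were lower in Y-KO, against 8.27% of all genes tested, with a median log2 fold change of -2.27 against -0.03 over all genes tested, and the exception was Tcrg-C2. Trac stood at 23.2, 22.7 and 14.5 CPM in Y-KO and 48.6, 49.2 and 44.7 CPM in Y-Scr (log2 fold change -1.24, edgeR adjusted p = 0.00270). Trbc1 stood at 15.9, 15.1 and 7.53 CPM in Y-KO and 71.9, 54.5 and 59.3 CPM in Y-Scr (log2 fold change -2.27, edgeR adjusted p = 0.00108), and Trbc2 had a log2 fold change of -1.43 (edgeR adjusted p = 0.000779). Trdc had 84, 57 and 37 counts in Y-KO and 821, 659 and 695 in Y-Scr (log2 fold change -3.46, edgeR adjusted p = 0.000165). The gamma constants Tcrg-C1 and Tcrg-C4 had log2 fold changes of -3.28 (edgeR adjusted p = 0.00141) and -2.90 (edgeR adjusted p = 0.00994).

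All 4 genes of the CD3 and zeta chains, which pass the receptor's signal into the cell, were lower, with a median log2 fold change of -1.19. Cd3d was at -1.32 (edgeR adjusted p = 0.00441), Cd3e at -0.92 (edgeR adjusted p = 0.0100), Cd3g at -1.06 (edgeR adjusted p = 0.0254) and Cd247 at -1.91 (edgeR adjusted p = 0.00566). The Cd3g call was lost without any 1 Y-Scr library (edgeR adjusted p from 0.0867 to 0.102) and that of Cd3e without Y-Scr replicate 3 (edgeR adjusted p = 0.0634). The coreceptor gene Cd4 stood at 6.93, 6.49 and 5.33 CPM in Y-KO and 28.9, 29.3 and 28.2 CPM in Y-Scr (log2 fold change -2.20, edgeR adjusted p = 5.83e-05). Cd8a stood at 41.6, 44.8 and 25.7 CPM in Y-KO and 31.0, 30.7 and 28.0 CPM in Y-Scr, with overlap (log2 fold change 0.32, edgeR adjusted p = 0.300). Without Y-KO replicate 3, Cd8a was higher in Y-KO (log2 fold change 0.53, edgeR adjusted p = 0.000644). Of 15 proximal signalling genes 14 were lower, among them the kinase gene Lck (log2 fold change -2.07, edgeR adjusted p = 0.000459). All 6 regulatory T cell genes and all 6 naive and memory T cell genes were lower, among them Foxp3 at -2.90 (edgeR adjusted p = 5.61e-05) and Tcf7 at -3.23 (edgeR adjusted p = 2.49e-05). Of 5 tested gamma-delta T cell genes 4 were lower, among them Cd163l1 at -5.88 (edgeR adjusted p = 0.000555), with 14, 0 and 14 counts in Y-KO. Cd163l1, Blk and Il23r of this list passed the filter on low counts only with Y-Scr libraries, so their p-values do not stand apart from that selection. Sox13 of this list did not pass the test, with a log2 fold change of 0.01. Of 7 cytotoxic effector genes 5 were lower, of 8 activation and exhaustion genes 3 and of 4 invariant T cell genes 2. Of 2 tested genes of V(D)J recombination and the pre-T cell receptor, 2 were lower. Over all genes tested, 8.27% were lower and 7.82% higher, and no list had a higher member.

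Markers of natural killer and B cells were mostly lower, and those of leukocytes in general were lower in 4 of 8, against 8.27% of all genes tested. Of 7 natural killer cell markers 6 were lower in Y-KO, led by the receptor gene Ncr1 at -3.99 (edgeR adjusted p = 1.53e-05). The 7 summed to 126 to 152 CPM in Y-KO and 357 to 377 CPM in Y-Scr. This sum takes in Klra4, which did not pass, at 74.7 to 82.9 CPM in Y-KO and 73.1 to 79.5 CPM in Y-Scr (log2 fold change 0.04). Of 6 B cell markers 5 were lower, among them Cd79a at -2.85 (edgeR adjusted p = 0.000413), with sums of 26.9 to 32.3 CPM in Y-KO and 93.9 to 103 CPM in Y-Scr. Pax5 of this list did not pass, with a log2 fold change of -0.14. Of 8 pan-leukocyte markers 4 were lower, with sums of 1142 to 2365 CPM in Y-KO, lowest in replicate 3, and 2772 to 2910 CPM in Y-Scr. The 4 that did not pass were Coro1a, Laptm5, Cd53 and Itgb2, with log2 fold changes from -0.65 to 0.06. None of these 3 lists had a higher member. Their part in the lower variable segment counts was not tested.

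The threshold of 10 counts fell among sparse alpha segments. Just inside were Trav16, Trav7-3, Trav6n-5, Trav9d-4 and Trav10n, with 10 counts each, and just outside were Trav8-1 and Trav6d-6, with 8 counts each. The 34 segments annotated as pseudogenes were all below it, and together had 0 counts in Y-KO libraries and 19 in Y-Scr libraries.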

How the data were processed

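The authors deposited 1 table of unnormalised counts of reads on each gene. It was made with featureCounts 1.5.3, per the file headers, on the Ensembl release 112 annotation of GRCm39 and named no other option, so that the defaults of this version apply: strand was ignored, both reads of a pair could be counted, and reads fitting several places or genes were left out. Per the labels, poly-A RNA went into a stranded kit. Per the submitters' processing notes, FastQC 0.12.1, MultiQC 1.13, Trimmomatic 0.39 and STAR 2.5.2b were also used, with GRCm39 (mm39). Symbols and segment sequences came from GENCODE M21 (GRCm38), matched by gene ID for 51880 genes (90.7%); coordinates are those of the deposited file.

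Groups followed the sample titles. Counts were fitted with edgeR 4.0.16 in R 4.3.3 (filterByExpr with a minimum count of 10 and total of 15, TMM, quasi-likelihood test, group alone in the model, Benjamini-Hochberg adjustment over 17837 genes, threshold 0.05). The SE is the log2 fold change divided by the square root of F. CPM values are counts over TMM-scaled library sizes. Expected segments at equal depth are hypergeometric expectations, and the inverse Simpson index uses the unbiased estimate. Sums, detection, evenness and distances are given as values with no test. A gene with no count in a group has a floor of 3 counts over the group. Floors and Wilson intervals cover counting error only. Reads do not stand for independent molecules, and a pair may count as 2, so floors may be too low and intervals too narrow; bounds are also given with 6 counts. The steps were tested on simulated data.

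The named segments are the 5 with the most counts per locus, the leading Trav and Trbv segment of each library, the 8 called segments with the smallest p, the segments of invariant receptors and those nearest the threshold; other names were picked with their values in view. The members and the 14 gene lists were chosen with earlier results of these data known. Alternatives were other scalings, filters and thresholds, DESeq2 1.42.0, halved counts, summed close libraries, a replicate block and leaving out each library.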

Additional observations from a re-analysis of the deposited data

How the results depend on the processing

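Without Trbv1 and Trgv2, an alternative chosen after seeing the data, the difference (Y-KO minus Y-Scr) in Pielou evenness became 0.0591, against -0.0385 with them. The log2 ratio of summed levels became -2.43, against -1.86. The difference in segments expected at equal depth became -24.9, against -29.0, and that in inverse Simpson index -6.51, against -15.9. The log2 ratio of Trbv counts per constant region count became -0.956, against -0.127, and the excess of between-group over within-group Trbv distance 0.166, against 0.356. The within-group term of this excess takes both groups together. Without Trbv1 the mean distance was 0.498 between the groups, 0.490 within Y-KO and 0.172 within Y-Scr. With all segments of at least 1 count, the difference in segments was -32.3 and in Pielou evenness -0.0197. With a minimum of 50 counts these were -10.6 and -0.0796, and the inverse Simpson difference -10.97. With counts halved, the difference in segments was -21.2. Leaving out 1 library gave -32.6 to -27.1 segments. It gave log2 ratios of Trbv per constant region count from -0.248 to 0.0532, with the sign reversed without Y-KO replicate 2; the cause was not tested.

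The 15 segments called lower by edgeR became 5 when Y-KO replicates 1 and 2 and Y-Scr replicates 2 and 3 were summed, and 3 to 22 when 1 library was left out. The number was 21 with DESeq2, 13 without the filter, 12 with halved counts and 15 with library size as the scaling, where the median log2 fold change over all genes was -0.17, against -0.03 with TMM. None was called higher in any of these. Trav21-dv12, Trbv23 and Trav14-3 kept their call in 3 of 11 alternatives each. Same-numbered libraries did not deviate together (Pearson r = -0.0084, 0.0049 and -0.0144 over genes). This cannot show whether they shared a step of the work. With the replicate block 11 segments were called lower. Depth limits the alpha locus, where single segments rest on few counts.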

Other observations

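The joining segments, which lie between the variable segments and the constant regions, were lower in Y-KO as well. Together they had 79, 89 and 24 counts in Y-KO libraries and 656, 580 and 706 counts in Y-Scr libraries, or 1.63, 2.01 and 0.544 CPM in Y-KO against 11.98, 13.0 and 13.2 CPM in Y-Scr, and the means differed 9.13-fold. Y-KO replicate 3 was the lowest library, and the groups did not overlap.

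Copies of alpha segments from the repeated stretches of the locus, whose names carry a d or an n, differed in where they were seen. The d copies had 0, 4 and 0 counts in Y-KO and 35, 28 and 62 in Y-Scr. The n copies had 0, 20 and 43 counts in Y-KO and 62, 67 and 48 in Y-Scr, and made up 30.7% of Trav counts in Y-KO replicate 3 against 8.56 to 13.3% in the Y-Scr libraries. These copies share long stretches with other segments, so their counts are uncertain.

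Of 4 genes of V(D)J recombination and the pre-T cell receptor, 2 could be tested. Ptcra, which encodes the pre-T cell receptor alpha chain, had no count in Y-KO and 16, 22 and 23 counts in Y-Scr (edgeR adjusted p = 0.0183). It passed the filter on low counts through Y-Scr alone, so its p-value does not stand apart from that selection. Dntt, the polymerase that adds bases at the joints, had 66, 52 and 18 counts in Y-KO and 227, 131 and 115 in Y-Scr (edgeR adjusted p = 0.0492). Both calls were lost without any 1 Y-Scr library (edgeR adjusted p from 0.0729 to 0.182), and that of Dntt also without Y-KO replicate 1 or 2 (edgeR adjusted p = 0.0616 and 0.0857). Rag1 had 0, 6 and 0 counts in Y-KO and 0, 0 and 2 in Y-Scr, and Rag2 had none in any library.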
